A study of Homo sapiens with 58 samples.

Results

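The circadian clock genes PER1, PER2, PER3, CRY1, CRY2, CLOCK, NR1D1, NR1D2, DBP and BHLHE40 were followed in HepG2 cells treated with herbal extracts. They were chosen by name, as 10 of the 60675 genes in the count table, and all 10 were among the 13945 genes with enough reads to be tested. The table came from RNA sequencing of 58 libraries that form 24 groups.

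HepG2 is a human liver cancer line, and all cells were harvested after 24 h. Sayeok-tang and Bojungikgi-tang, each a formula of several herbs, were given as water extracts at 20 (low), 100 (medium) and 500 (high) µg/mL. The ethanol extracts of Scutellariae Radix, Pinelliae Tuber, Zizyphi Fructus, fresh ginger (Zingiberis Rhizoma Recens) and dried ginger (Zingiberis Rhizoma) were given at the same doses, and that of Coptidis Rhizoma at 11.2 (low) and 56 (medium) µg/mL. The vehicle was DMSO, at 0.1% in the sample labels and 2% in the series text. No DMSO share is recorded for the extract libraries, so solvent and extract cannot be told apart against the vehicle. There were 3 libraries in most groups and in the vehicle, 2 at each dose of Bojungikgi-tang and at the high dose of Zingiberis Rhizoma, and 1 at every dose of Zizyphi Fructus and Coptidis Rhizoma. Nothing in the labels ties a replicate to a culture of its own, and the p-values therefore measure only the spread between these libraries, which may be technical. Every sample label carries the word BatchC, for the vehicle and the extracts alike. The vehicle libraries have a sample code prefix of their own. The formulas share a prefix, both gingers share another, and Pinelliae Tuber and Scutellariae Radix share yet another. Prefix and treatment therefore cannot be told apart against the vehicle. Comparisons of the high with the low dose, and of extracts that share a prefix, lie within a prefix.

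In the mammalian clock the transcription factors CLOCK and BMAL1 bind E-box sequences and switch on the PER and CRY genes, whose proteins return to the nucleus and repress CLOCK and BMAL1. The receptors NR1D1 and NR1D2, which compete with the ROR receptors, repress BMAL1 and are themselves E-box targets, and BHLHE40 is a further repressor that binds E-boxes. DBP is an output factor that acts through D-box sequences, and in liver this output sets the daily rhythm of many metabolic genes. All libraries here come from 1 time point, so levels over a cycle were not measured.

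The libraries held 22143845 to 31859981 expected counts. The hepatocyte markers ALB, APOA1, APOB, TTR, SERPINA1 and AFP summed to 28376 to 42630 CPM (counts relative to the scaled library total). Of the 5 fibroblast markers 2 were at 0 in every library, and their sum lay between 0.159 and 1.46 CPM. The leukocyte marker PTPRC was at 0 in every library, while the sum of the 4 leukocyte markers was 1190 to 2374 CPM, nearly all of it LYZ. The 3 endothelial markers summed to 2.63 to 5.08 CPM. Replicate 3 of Scutellariae Radix low, replicate 3 of Zingiberis Rhizoma low and the Zizyphi Fructus low library stood apart from their groups or their other doses. The 2 Coptidis Rhizoma libraries had TMM scaling factors of 0.913 (medium) and 0.878 (low), beside 0.98 to 1.04 in the other 56.

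The promoters of 5 members are shown because BHLHE40, DBP, PER3, PER1 and NR1D1 ranged most over the 24 groups, and because the clock acts through short motifs in such sequence. Each runs 5′ to 3′ on the gene's strand, from 250 bases before to 50 bases after the transcription start in RefSeq (GRCh38.p14). Capitals mark the E-box CACGTG, its variant CACGTT or AACGTG (the same motif on the other strand), and the D-box TTATGTAA or TTACATAA.
BHLHE40, chr3:4979187-4979486, plus strand: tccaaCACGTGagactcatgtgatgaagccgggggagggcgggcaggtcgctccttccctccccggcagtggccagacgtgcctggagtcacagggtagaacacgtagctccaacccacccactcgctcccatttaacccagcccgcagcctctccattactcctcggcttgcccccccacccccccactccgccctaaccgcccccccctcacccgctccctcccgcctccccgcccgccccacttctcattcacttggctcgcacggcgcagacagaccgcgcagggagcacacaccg
DBP, chr19:48637330-48637629, minus strand: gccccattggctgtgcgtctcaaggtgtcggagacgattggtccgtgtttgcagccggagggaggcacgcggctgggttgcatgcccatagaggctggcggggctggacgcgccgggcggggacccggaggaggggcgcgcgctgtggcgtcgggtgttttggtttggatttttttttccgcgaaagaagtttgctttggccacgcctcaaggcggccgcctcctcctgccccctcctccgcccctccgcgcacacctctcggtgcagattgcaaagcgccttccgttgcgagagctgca
NR1D1, chr17:40100540-40100839, minus strand: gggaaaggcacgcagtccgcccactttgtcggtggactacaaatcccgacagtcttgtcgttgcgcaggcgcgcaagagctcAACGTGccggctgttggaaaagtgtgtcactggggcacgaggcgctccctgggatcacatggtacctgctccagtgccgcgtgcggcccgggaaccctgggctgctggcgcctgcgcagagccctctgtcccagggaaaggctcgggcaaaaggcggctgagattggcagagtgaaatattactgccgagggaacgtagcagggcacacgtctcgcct
PER1, chr17:8152355-8152654, minus strand: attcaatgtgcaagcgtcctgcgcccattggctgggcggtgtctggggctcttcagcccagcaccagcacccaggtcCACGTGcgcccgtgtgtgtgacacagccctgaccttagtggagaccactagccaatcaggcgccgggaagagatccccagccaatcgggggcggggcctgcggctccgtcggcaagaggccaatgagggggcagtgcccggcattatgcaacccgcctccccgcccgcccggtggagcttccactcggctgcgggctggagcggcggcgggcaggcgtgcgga
PER3, chr1:7784041-7784340, plus strand: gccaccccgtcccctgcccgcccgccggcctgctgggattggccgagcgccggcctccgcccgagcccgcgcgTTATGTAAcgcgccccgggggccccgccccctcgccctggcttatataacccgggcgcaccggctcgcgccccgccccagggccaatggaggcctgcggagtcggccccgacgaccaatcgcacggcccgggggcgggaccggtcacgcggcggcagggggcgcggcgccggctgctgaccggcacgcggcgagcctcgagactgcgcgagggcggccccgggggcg

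All 10 genes had a promoter in the RefSeq table, 14 windows in all because PER3, NR1D2, CLOCK and CRY2 have 2 starts. The counts that follow are of genes, some with 2 windows, while the shares are of windows, so they are not like for like. CACGTG was found in 3 of the 10 genes, BHLHE40, PER1 and the second start of NR1D2, and 7.26% of all 35116 promoter windows hold it. The variant CACGTT was found in PER2, CLOCK, CRY1, CRY2 and NR1D1, and 5.34% of all windows hold it. The D-box was found in PER3 and NR1D2, against 0.886% of all windows. The shorter ACGTG, the core of the element bound by hypoxia-inducible factors, occurs in 21.4% of windows and in 8 of the 10 genes, partly because it lies inside CACGTG and AACGTG. In BHLHE40 it also occurs at 2 places outside the E-box, which begin 174 and 149 bases before the start. PER2, CRY2 and NR1D1 hold it outside the E-box and its variant as well. The DBP window holds none of these motifs, and a match is a description of the letters and not a bound site.

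In the vehicle, levels per kilobase of annotated exons (CPM divided by exon length) ran from 4.91 ± 0.044 for NR1D1, 4.77 ± 1.17 for BHLHE40 and 4.76 ± 0.18 for CRY1 down to 1.5 ± 0.037 for PER1, 1.37 ± 0.024 for PER3 and 0.786 ± 0.063 for DBP (SD, n = 3). PER2, CLOCK, CRY2 and NR1D2 lay between them, at 2.89 to 3.61. Over the 24 groups, BHLHE40 ranged over 2.15 log2 units of CPM, more than 96.9% of the tested genes, and DBP over 1.77, more than 94.8%. Both ends of the DBP range are groups of 1 library, Zizyphi Fructus low, which stands apart, and Coptidis Rhizoma medium. PER3 ranged over 0.92, PER1 over 0.92 and NR1D1 over 0.79. The lowest groups of PER3 (Coptidis Rhizoma medium) and NR1D1 (Zizyphi Fructus high) are also single libraries. CRY2, with 0.39, varied least and ranged over more than 25.5% of the tested genes.

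At the high dose of 4 extracts, BHLHE40 rose and DBP fell, while the other members changed less. CRY1 was called higher and PER3 lower in all 4 as well, though not every one of these calls held in the alternatives. The calls of the rest differed between extracts. Against the vehicle, 7 of the 10 genes were called at Sayeok-tang high, where 40.2% of all tested genes were called, 6 at Zingiberis Rhizoma Recens high (47.9% of all genes), 9 at Zingiberis Rhizoma high (46.1%) and 8 at Scutellariae Radix high (56.7%). A gene was called at an adjusted p below 0.05 in edgeR's quasi-likelihood test, with Benjamini-Hochberg adjustment over all 13945 genes. The counts in Zingiberis Rhizoma Recens and Scutellariae Radix are near these shares and are not a result about the clock genes. Whether those in Sayeok-tang and Zingiberis Rhizoma exceed the shares was not tested. With 10 genes, chosen with earlier results of these data known, they are not a result about the clock genes either. The Scutellariae Radix count was 6 in DESeq2, without the filter on low counts, without any 1 vehicle library and without its own replicate 2. The median of the 10 log2 fold changes was 0.01, -0.04, -0.15 and 0.03 in these comparisons, beside 0.00 to 0.01 for all genes. The comparisons share the 3 vehicle libraries. The values are shares of the RNA of whole cultures, so that fewer cells with a transcript and less of it per cell cannot be told apart.

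**Figure D1:**
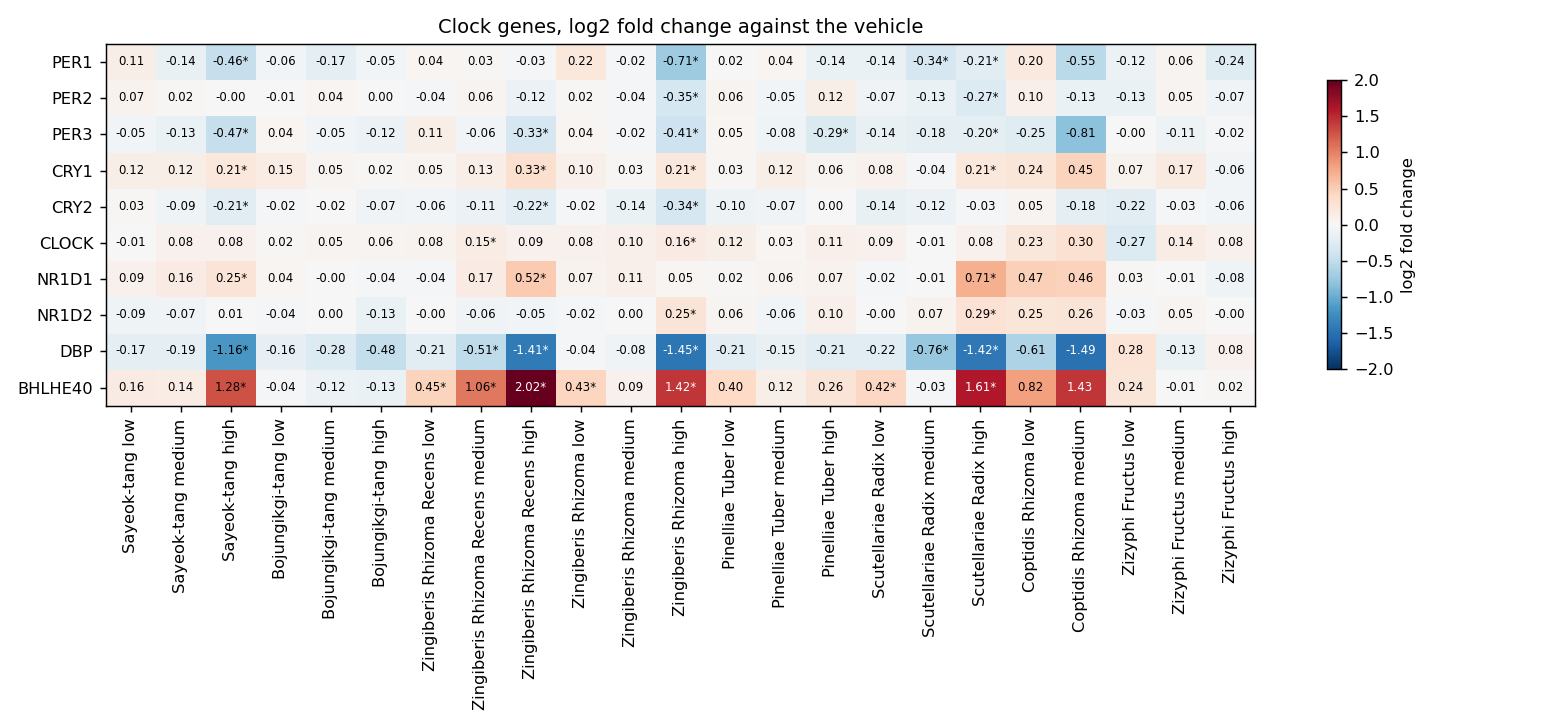
Log2 fold change against the vehicle of the 10 clock genes (rows) in each extract and dose (columns), red for higher and blue for lower, with an asterisk where edgeR called the gene. Coptidis Rhizoma and Zizyphi Fructus have 1 library a dose and no test, and the deepest colours are in the BHLHE40 row (up to 2.02) and the DBP row (down to -1.49).

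Lower doses gave few calls. At the medium dose 3 genes were called in Zingiberis Rhizoma Recens (11.3% of all genes) and 2 in Scutellariae Radix (18.3%). At the low dose 1 gene was called in Zingiberis Rhizoma Recens (0.602%), 1 in Zingiberis Rhizoma (2.12%) and 1 in Scutellariae Radix (10.3%). Pinelliae Tuber had 1 call at the high dose (15.7%). In edgeR 0 genes were called at the medium (4.22%) and low (0.0574%) doses of Sayeok-tang, the high (4.55%), medium (0.0645%) and low (0%) doses of Bojungikgi-tang, Zingiberis Rhizoma medium (1.45%) and the medium (0.287%) and low (0.272%) doses of Pinelliae Tuber. At an unadjusted p below 0.05 those 8 comparisons had 1, 0, 1, 0, 1, 2, 0 and 2 of the 10 genes in the same order, and DESeq2 called BHLHE40 in the last of them and 0 genes in the others. Over the 18 comparisons with the vehicle the median of the 10 genes ran from -0.15 to 0.07.

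Among the repressors, BHLHE40 (ENSG00000134107, chr3:4979116-4985323 on GRCh38), the E-box repressor that is also a known target of hypoxia-inducible factors, changed most. It stood at 75.7, 76.3 and 70.7 CPM in the Zingiberis Rhizoma Recens high libraries, against 15.2, 16.3 and 23.4 CPM in the vehicle. All 3 treated libraries lay far above the vehicle, in which replicate 3 was higher than the others. The log2 fold change was 2.02 ± 0.091 (SE; edgeR adjusted p = 3.4e-23).

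BHLHE40 also rose in the high-dose libraries of Scutellariae Radix, with 60.2, 55.1 and 52.2 CPM. Levels in Zingiberis Rhizoma high were 49.3 and 48.9 CPM, and in Sayeok-tang high they were 45.6, 42.8 and 45.0 CPM. None of these libraries overlapped with the vehicle. The log2 fold changes were 1.61 ± 0.092, 1.42 ± 0.10 and 1.28 ± 0.093 (SE; edgeR adjusted p = 9.5e-20, 4.4e-16 and 1.3e-15). Ordered by mean, the high doses ran from Zingiberis Rhizoma Recens through Scutellariae Radix, Zingiberis Rhizoma and Sayeok-tang with no overlap between neighbours. Pinelliae Tuber, at 22.5, 22.3 and 20.8 CPM, overlapped with the vehicle (log2 fold change 0.26 ± 0.098, edgeR adjusted p = 0.068). Without vehicle replicate 3 this difference passed the test (edgeR adjusted p = 0.00049), as it did with no filter on low counts, and so did BHLHE40 at Pinelliae Tuber low (0.00032) and Sayeok-tang medium (0.035) without that library. At Pinelliae Tuber low BHLHE40 also passed with the replicate block (edgeR adjusted p = 0.048), while at Pinelliae Tuber high it did not. Bojungikgi-tang high, at 16.1 and 17.4 CPM, lay inside the range of the vehicle, and the 95% interval of its log2 fold change was -0.36 to 0.10.

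The high-minus-low difference of BHLHE40 was larger in Zingiberis Rhizoma Recens than in Zingiberis Rhizoma, by 0.58 ± 0.13 log2 units (SE; edgeR adjusted p = 0.0013). In the series of vehicle, low, medium and high dose of Zingiberis Rhizoma Recens its means were 18.3 ± 4.47, 24.9 ± 2.04, 38.2 ± 0.740 and 74.2 ± 3.04 CPM (SD, n = 3 each), and each dose was called against the vehicle. For Zingiberis Rhizoma the means at the low, medium and high dose were 24.7 ± 1.40, 19.5 ± 0.350 and 49.1 ± 0.285 CPM (n = 3, 3 and 2), so the medium dose lay below the low one. Scutellariae Radix showed 24.5 ± 2.91, 17.9 ± 1.31 and 55.8 ± 4.03 CPM at its low, medium and high dose (n = 3 each). The low-dose calls were small, at 0.45 ± 0.097, 0.43 ± 0.097 and 0.42 ± 0.097 log2 units (SE; edgeR adjusted p = 0.014, 0.013 and 0.0035), and all 3 groups overlapped with vehicle replicate 3. They were lost without vehicle replicate 1 (edgeR adjusted p = 0.21, 0.15 and 0.055 in the same order). The Zingiberis Rhizoma Recens low call was also lost without vehicle replicate 2 or without its own replicate 1 or 2, and the Zingiberis Rhizoma low call without vehicle replicate 2. With only the compared groups in the fit, the Zingiberis Rhizoma low and Scutellariae Radix low calls were lost too. At Zingiberis Rhizoma Recens medium the rise was 1.06 ± 0.094 (SE; edgeR adjusted p = 5.8e-12).

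**Figure D2:**
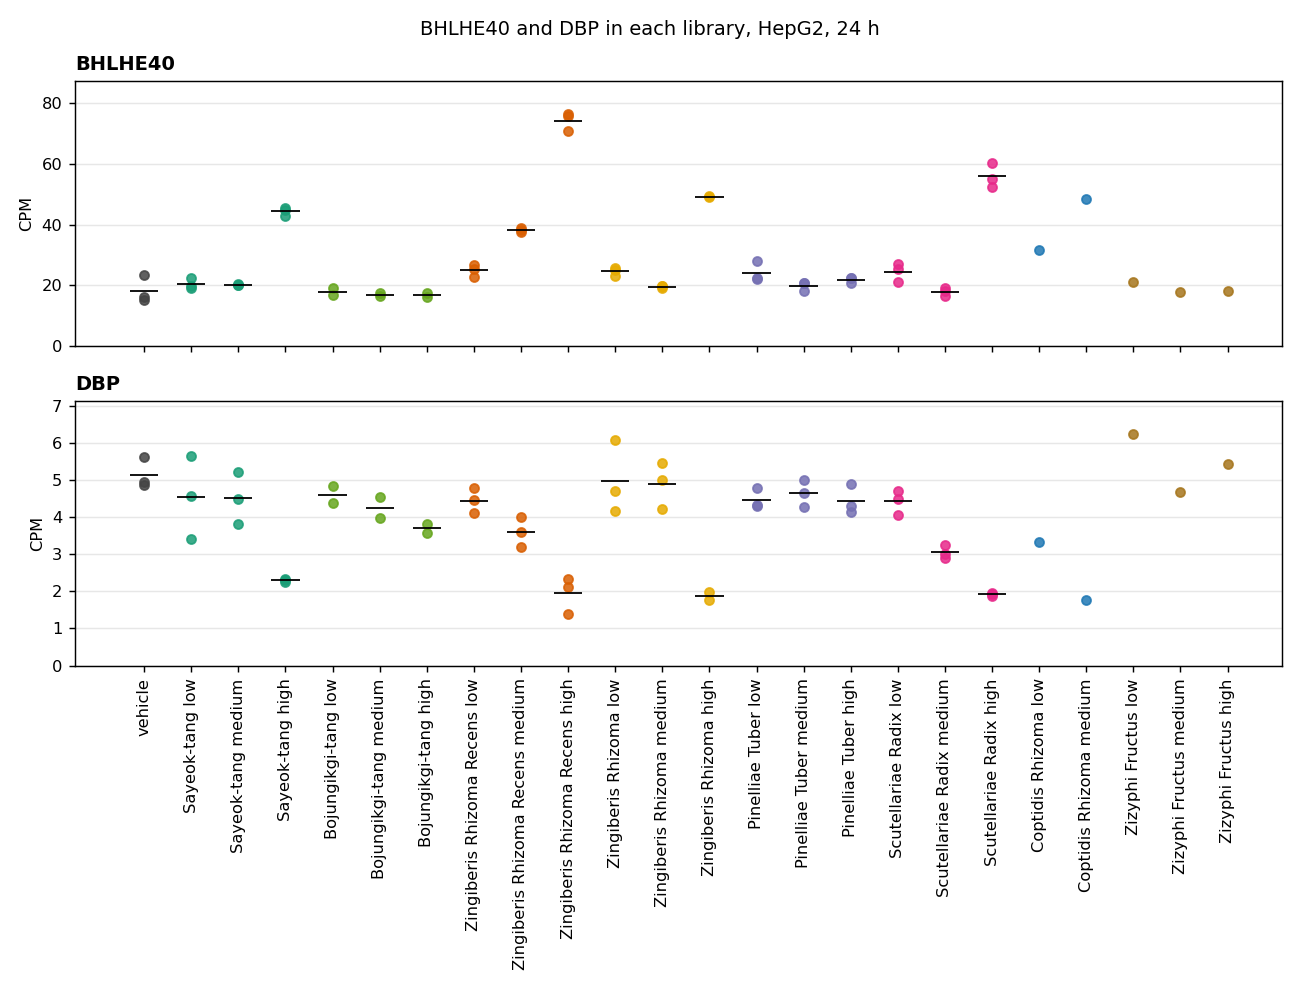
BHLHE40 (top) and DBP (bottom) in CPM in each library, with 1 point per library, 1 colour per extract and a bar at the mean of groups with more than 1 library. The high doses of 4 extracts and Coptidis Rhizoma medium lie between 42.8 and 76.3 CPM for BHLHE40 and between 1.39 and 2.34 CPM for DBP, while the vehicle lies between 15.2 and 23.4 CPM and between 4.88 and 5.62 CPM.

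DBP (ENSG00000105516, chr19:48630030-48637438), the D-box output factor, fell where BHLHE40 rose most. It was low in reads, with 395 over the 3 vehicle libraries and 89 over the 2 of Zingiberis Rhizoma high. Zingiberis Rhizoma high had 1.99 and 1.78 CPM, against 4.94, 5.62 and 4.88 CPM in the vehicle, a log2 fold change of -1.45 ± 0.18 (SE; edgeR adjusted p = 7.4e-09). The groups did not overlap.

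Scutellariae Radix high had 1.93, 1.87 and 1.95 CPM of DBP, Zingiberis Rhizoma Recens high 2.34, 1.39 and 2.12 and Sayeok-tang high 2.31, 2.25 and 2.34. Their log2 fold changes were -1.42 ± 0.16, -1.41 ± 0.16 and -1.16 ± 0.15 (SE; edgeR adjusted p = 1.1e-10, 2.1e-10 and 1.9e-08). Neighbours in the order of the 4 means overlapped. Scutellariae Radix medium, at 3.00, 2.90 and 3.25 CPM, lay between its low dose (4.06, 4.50 and 4.69 CPM) and its high dose, and its log2 fold change against the vehicle was -0.76 ± 0.14 (SE; edgeR adjusted p = 0.00011). Zingiberis Rhizoma Recens medium, at 3.59, 3.19 and 4.00 CPM, also fell (log2 fold change -0.51 ± 0.14, edgeR adjusted p = 0.012), a call lost without vehicle replicate 2 or its own replicate 2. Bojungikgi-tang high, at 3.82 and 3.57 CPM, lay below every vehicle library but did not pass the test (log2 fold change -0.48 ± 0.16, edgeR adjusted p = 0.074). It did pass without the 3 libraries that stand apart, a setting chosen after seeing the data. Pinelliae Tuber high, at 4.14, 4.88 and 4.31 CPM, overlapped with the vehicle.

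The exons of DBP overlap over 661 bases, 10.1% of their length, with those of SPHK2 on the other strand. SPHK2, looked at after the values were seen, fell at the same 4 high doses, by log2 fold changes of -0.46 in Sayeok-tang, -0.40 in Zingiberis Rhizoma Recens, -0.50 in Zingiberis Rhizoma and -0.50 in Scutellariae Radix. The library kit keeps strand, but the counting setting is not given in the sources used here, and the part of shared reads in the DBP values was not tested. Each of these log2 fold changes was smaller in size than that of DBP, a difference that was not tested.

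NR1D1 (ENSG00000126368, chr17:40092787-40100725), the REV-ERB alpha receptor that represses BMAL1, rose in 3 of these 4 extracts. Scutellariae Radix high had 23.3, 21.7 and 21.8 CPM, against 13.7, 13.5 and 13.6 CPM in the vehicle. The log2 fold change was 0.71 ± 0.072 (SE; edgeR adjusted p = 1.1e-11), and the groups did not overlap. Its medium dose, at 13.6, 13.6 and 13.2 CPM, lay at the level of the vehicle.

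Zingiberis Rhizoma Recens high had 21.4, 19.1 and 18.1 CPM of NR1D1 and Sayeok-tang high 16.5, 15.9 and 16.2 CPM, all above the vehicle. The log2 fold changes were 0.52 ± 0.073 and 0.25 ± 0.074 (SE; edgeR adjusted p = 6.5e-08 and 0.0052). Zingiberis Rhizoma high, at 14.7 and 13.4 CPM, overlapped with the vehicle, with a log2 fold change of 0.05 ± 0.086 and a 95% interval of -0.12 to 0.22. Ordered by mean, Scutellariae Radix, Zingiberis Rhizoma Recens and Sayeok-tang high did not overlap with one another, while Pinelliae Tuber, Zingiberis Rhizoma, Bojungikgi-tang and the vehicle overlapped with their neighbours. The NR1D1 exons overlap over 263 bases (9.49%) with those of THRA, a thyroid hormone receptor gene on the other strand. THRA moved the other way, with log2 fold changes of -0.51, -0.36 and -0.39 in the same 3 comparisons (edgeR adjusted p = 1.3e-07, 8.2e-05 and 3.1e-05). It was also called lower where NR1D1 was not called. These were Zingiberis Rhizoma high (-0.26, edgeR adjusted p = 0.01) and Scutellariae Radix medium (-0.29, 0.0036) and low (-0.23, 0.035).

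NR1D2, the REV-ERB beta receptor, was called in a different set of extracts. It stood at 20.3 and 19.9 CPM in Zingiberis Rhizoma high and 21.7, 21.4 and 18.7 CPM in Scutellariae Radix high, against 16.2, 17.7 and 16.6 CPM in the vehicle. Both groups lay above the vehicle, by 0.25 ± 0.078 and 0.29 ± 0.069 log2 units (SE; edgeR adjusted p = 0.0066 and 0.00035). The Zingiberis Rhizoma call was lost without its own replicate 1 (edgeR adjusted p = 0.054). Sayeok-tang and Zingiberis Rhizoma Recens high had log2 fold changes of 0.01 ± 0.07 and -0.05 ± 0.071, and their libraries overlapped with the vehicle.

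**Figure D3:**
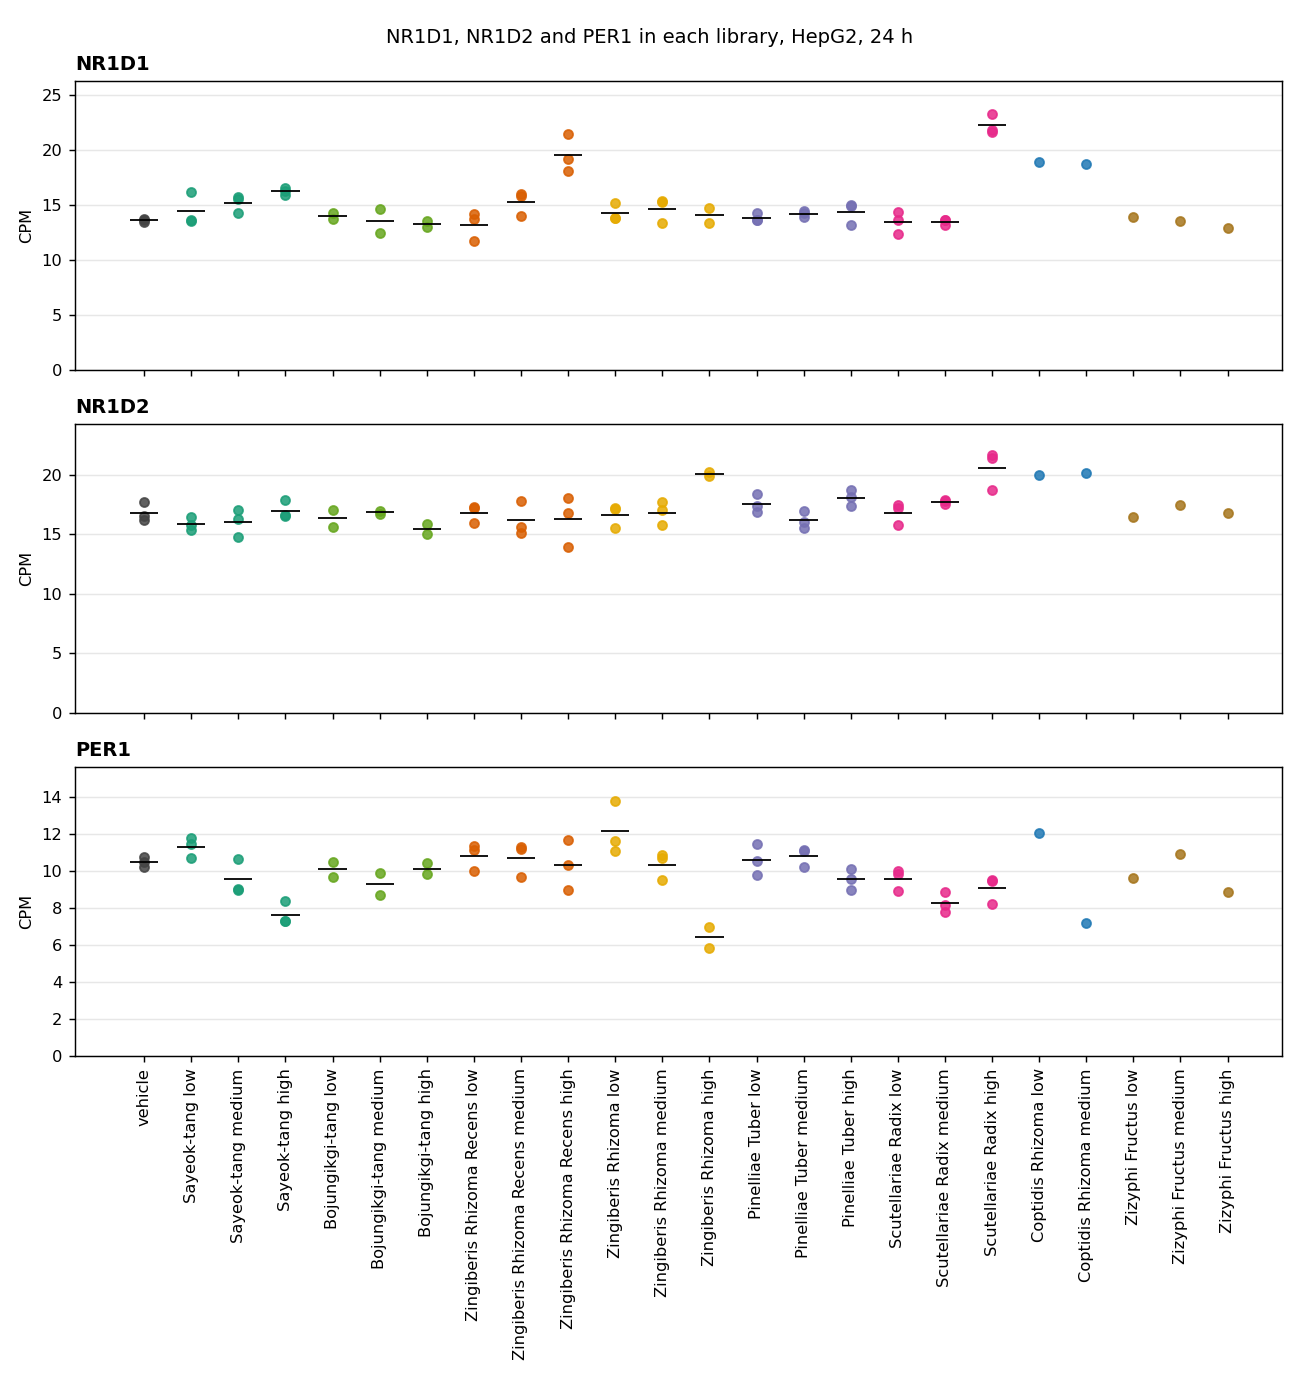
NR1D1, NR1D2 and PER1 in CPM in each library, with 1 point per library, 1 colour per extract and a bar at the mean of groups with more than 1 library. NR1D1 is highest in Scutellariae Radix high (21.7 to 23.3 CPM), NR1D2 is raised in Scutellariae Radix and Zingiberis Rhizoma high, and PER1 is lowest in Zingiberis Rhizoma high (5.85 and 6.96 CPM).

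The PER genes, whose proteins repress CLOCK and BMAL1 together with the CRY proteins, were lower than the vehicle wherever they were called. PER1 (ENSG00000179094, chr17:8140472-8156506) had 6.96 and 5.85 CPM in Zingiberis Rhizoma high and 7.25, 8.35 and 7.26 CPM in Sayeok-tang high, against 10.7, 10.5 and 10.2 CPM in the vehicle. Neither group overlapped with the vehicle, and the log2 fold changes were -0.71 ± 0.11 and -0.46 ± 0.094 (SE; edgeR adjusted p = 8.8e-07 and 8.8e-05). Zingiberis Rhizoma Recens high, at 11.6, 8.96 and 10.3 CPM, spanned the vehicle range, with a 95% interval of -0.21 to 0.15 log2 units.

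In Scutellariae Radix PER1 had a lower mean at the medium dose, with 8.85, 8.13 and 7.75 CPM, than at the high dose, with 9.52, 8.19 and 9.42 CPM. The 2 doses overlapped, and the difference between them was not tested. Against the vehicle the log2 fold changes were -0.34 ± 0.093 (medium) and -0.21 ± 0.092 (high dose) (SE; edgeR adjusted p = 0.0064 and 0.048). The high-dose call was lost in DESeq2, with the replicate block, with no filter on low counts, without any 1 vehicle library and without its own replicate 2.

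PER3, which in mice is dispensable for the core loop, fell in 5 extracts at the high dose. Its levels were 8.12, 8.58 and 7.49 CPM in Sayeok-tang, 8.23 and 8.56 CPM in Zingiberis Rhizoma and 7.90, 9.46 and 9.11 CPM in Zingiberis Rhizoma Recens, against 11.3, 11.1 and 10.9 CPM in the vehicle. No treated library reached the vehicle range. The log2 fold changes were -0.47 ± 0.086, -0.41 ± 0.099 and -0.33 ± 0.086 (SE; edgeR adjusted p = 2.0e-05, 0.0007 and 0.0013). Pinelliae Tuber high, at 8.09, 9.16 and 9.98 CPM, had PER3 as its 1 called clock gene (-0.29 ± 0.085, edgeR adjusted p = 0.014), a call lost without its own replicate 1 (edgeR adjusted p = 0.13). For Scutellariae Radix high, with 9.45, 8.82 and 10.7 CPM, the change of -0.20 ± 0.085 (edgeR adjusted p = 0.039) was lost in DESeq2, with no filter, without any 1 vehicle library and without its own replicate 1 or 2.

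PER2, the PER gene with the highest level per kilobase in the vehicle, had 18.2 and 20.8 CPM in Zingiberis Rhizoma high and 20.9, 19.8 and 20.9 CPM in Scutellariae Radix high, against 25.8, 25.0 and 23.7 CPM in the vehicle. Both fell without overlap, by log2 fold changes of -0.35 ± 0.068 and -0.27 ± 0.059 (SE; edgeR adjusted p = 3.5e-05 and 0.00012). Sayeok-tang high, at 24.5, 24.0 and 25.8 CPM, had a 95% interval of -0.12 to 0.11 log2 units, so a change in PER2 as large as that of PER1 or PER3 in the same libraries lies outside it.

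The CRY genes, which encode the cryptochrome partners of the PER proteins, were called in opposite directions, CRY1 higher and CRY2 lower. CRY1 had 28.7, 30.5 and 31.5 CPM in Zingiberis Rhizoma Recens high, against 24.3, 24.9 and 23.1 CPM in the vehicle, and rose by 0.33 ± 0.059 log2 units (SE; edgeR adjusted p = 8.7e-06). Its log2 fold change was 0.21 ± 0.059 in Sayeok-tang high, 0.21 ± 0.067 in Zingiberis Rhizoma high and 0.21 ± 0.059 in Scutellariae Radix high (SE; edgeR adjusted p = 0.004, 0.009 and 0.0018). In all 4 groups every library lay above the vehicle, and the Zingiberis Rhizoma call was lost without its own replicate 2 (edgeR adjusted p = 0.08).

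CRY2 fell in 3 of these groups. It had 15.8 and 15.2 CPM in Zingiberis Rhizoma high, 16.4, 16.9 and 17.1 CPM in Zingiberis Rhizoma Recens high and 16.3, 17.5 and 16.9 CPM in Sayeok-tang high, against 18.9, 19.1 and 20.7 CPM in the vehicle. The log2 fold changes were -0.34 ± 0.063, -0.22 ± 0.054 and -0.21 ± 0.054 (SE; edgeR adjusted p = 1.5e-05, 0.00085 and 0.0017), with no overlap. Scutellariae Radix high, at 18.4, 19.6 and 19.3 CPM, overlapped with the vehicle, with a 95% interval of -0.14 to 0.07 log2 units.

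CLOCK, the activator that pairs with BMAL1, varied least between replicates and changed little. It had 47.4 and 44.7 CPM in Zingiberis Rhizoma high and 46.2, 47.3 and 43.6 CPM in Zingiberis Rhizoma Recens medium, against 41.3, 41.5 and 41.1 CPM in the vehicle. Those log2 fold changes of 0.16 ± 0.044 and 0.15 ± 0.04 passed the test (SE; edgeR adjusted p = 0.0033 and 0.011), but not with no filter on low counts. The first was lost without Zingiberis Rhizoma high replicate 1 and the second without Zingiberis Rhizoma Recens medium replicate 1 or 2. At the high dose of Zingiberis Rhizoma Recens CLOCK stood at 42.0, 45.6 and 44.0 CPM and was not called (edgeR adjusted p = 0.059), although it passed without its own replicate 1 (0.021) and with RLE scaling (0.048).

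Within a code prefix, the high dose was compared with the low dose of the same extract, which leaves the vehicle out. In Sayeok-tang 5 of the 10 genes were called (37.6% of all genes), in Zingiberis Rhizoma Recens 6 (47.6%), in Zingiberis Rhizoma 7 (47.4%), in Scutellariae Radix 6 (55.7%) and in Pinelliae Tuber 1 (10.1%). In Bojungikgi-tang edgeR called 0 (1.69%), with 0 in DESeq2 and 0 at an unadjusted p below 0.05. DBP fell by log2 fold changes of -0.99 ± 0.15 in Sayeok-tang, -1.20 ± 0.16 in Zingiberis Rhizoma Recens, -1.41 ± 0.18 in Zingiberis Rhizoma and -1.20 ± 0.16 in Scutellariae Radix (log2 fold change and SE). BHLHE40 rose by 1.12 ± 0.092, 1.57 ± 0.087, 0.99 ± 0.097 and 1.19 ± 0.088 in the same order. In these 8 comparisons no high-dose library overlapped with the low-dose ones.

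Other members kept only part of their calls there. PER1 fell by log2 fold changes of -0.93 ± 0.11 in Zingiberis Rhizoma and -0.57 ± 0.093 in Sayeok-tang (edgeR adjusted p = 1.1e-09 and 2.7e-06), but its value in Scutellariae Radix was -0.07 ± 0.092 and not called. PER3 fell in Zingiberis Rhizoma (-0.45 ± 0.097), Zingiberis Rhizoma Recens (-0.44 ± 0.084), Sayeok-tang (-0.41 ± 0.087) and Pinelliae Tuber (-0.34 ± 0.085), while in Scutellariae Radix its value was -0.06 ± 0.085 and not called. The Pinelliae Tuber call was lost without high replicate 1 (edgeR adjusted p = 0.078). NR1D1 rose by 0.73 ± 0.071 in Scutellariae Radix and 0.56 ± 0.073 in Zingiberis Rhizoma Recens (edgeR adjusted p = 4.7e-12 and 9.8e-09). Its value in Sayeok-tang was 0.17 ± 0.074 and did not pass (edgeR adjusted p = 0.074), where low replicate 2 at 16.2 CPM lay inside the range of the high dose and the difference passed without it (edgeR adjusted p = 0.01). CRY1 in Scutellariae Radix (0.14 ± 0.058) and CRY2 in Zingiberis Rhizoma Recens (-0.16 ± 0.054) were called, but neither in DESeq2, with no filter or with only the compared groups in the fit. The CRY1 call was also lost with the replicate block (edgeR adjusted p = 0.051), with RLE scaling, without any 1 high-dose library and without low replicate 3, and the CRY2 call without high replicate 1. Without the 3 libraries that stand apart, the count was 7 in Sayeok-tang and 5 in Scutellariae Radix. CLOCK was called in none of the 6 comparisons, with log2 fold changes of -0.01 to 0.08 and DESeq2 calling 0 as well. At an unadjusted p below 0.05, CLOCK passed in 1 of the 6, Sayeok-tang, where the call was made without low replicate 1 (edgeR adjusted p = 0.047).

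Extracts of 1 prefix were also compared at the same dose of 500 µg/mL, as Sayeok-tang with Bojungikgi-tang, fresh with dried ginger, and Scutellariae Radix with Pinelliae Tuber. The gingers differed in 5 of the 10 genes (23.5% of all genes). BHLHE40 was higher in Zingiberis Rhizoma Recens than in Zingiberis Rhizoma by 0.60 ± 0.093 log2 units, PER1 by 0.68 ± 0.11, NR1D1 by 0.48 ± 0.083 and PER2 by 0.23 ± 0.069, while NR1D2 was lower by a log2 fold change of -0.30 ± 0.078 (SE; edgeR adjusted p = 2.6e-06, 6.1e-06, 1.8e-05, 0.011 and 0.003). None of those 5 genes, picked by the test on the same libraries, overlapped between the gingers. The share of all genes without overlap was not counted. DBP did not separate them, with 2.34, 1.39 and 2.12 CPM in Zingiberis Rhizoma Recens and 1.99 and 1.78 CPM in Zingiberis Rhizoma and a 95% interval of -0.37 to 0.45 log2 units. The count was 3 when only these 2 groups were in the fit, where PER2 and NR1D2 were lost, and the PER2 call was lost without Zingiberis Rhizoma high replicate 1 or Zingiberis Rhizoma Recens high replicate 1.

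Sayeok-tang differed from Bojungikgi-tang at the high dose in 6 genes (26.2% of all genes), with BHLHE40 at 1.41 ± 0.11, NR1D1 at 0.29 ± 0.084 and CRY1 at 0.19 ± 0.066 higher, and DBP at -0.68 ± 0.18, PER1 at -0.41 ± 0.11 and PER3 at -0.35 ± 0.098 lower (log2 fold change and SE). Without Bojungikgi-tang high replicate 2 the count was 3, since PER1, PER3 and CRY1 were lost. NR1D1 was lost without Bojungikgi-tang high replicate 3, and CRY1 also without Sayeok-tang high replicate 2. Scutellariae Radix differed from Pinelliae Tuber in 6 genes (55.9%), with BHLHE40 at 1.35 ± 0.089, NR1D1 at 0.64 ± 0.071, NR1D2 at 0.19 ± 0.068 and CRY1 at 0.15 ± 0.058 higher, and DBP at -1.21 ± 0.16 and PER2 at -0.40 ± 0.059 lower. The NR1D2 and CRY1 calls were each lost without 3 of the 6 libraries in turn. PER3, which was lower than the vehicle in both, did not separate them (0.09 ± 0.086, 95% interval -0.08 to 0.26).

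The test of the dose effect itself asked whether the high-minus-low difference was the same in the paired extracts. It was called for 3 genes between Sayeok-tang and Bojungikgi-tang (13.9% of all genes), for 5 between the gingers (15.9%) and for 5 between Scutellariae Radix and Pinelliae Tuber (44.4%). Between the formulas the DBP call was lost in DESeq2 (adjusted p = 0.082), with no filter, with only the compared groups in the fit and without any 1 of 9 of their 10 libraries (edgeR adjusted p of 0.069 to 0.19). Without the 3 libraries that stand apart, the count was 4 between the formulas and 4 between Scutellariae Radix and Pinelliae Tuber. Between the gingers PER1 differed most. Its high minus low difference was -0.07 ± 0.09 in Zingiberis Rhizoma Recens and -0.93 ± 0.11 in Zingiberis Rhizoma, and the difference between them was 0.86 ± 0.14 log2 units (SE; edgeR adjusted p = 1.4e-05). NR1D1 differed likewise by 0.59 ± 0.11 (edgeR adjusted p = 0.00013).

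In groups of 1 library there is no replicate check and no p. Coptidis Rhizoma medium, at 56 µg/mL, had 3 clock genes at least 1.5-fold from the vehicle mean and outside the vehicle range (20.7% of all tested genes). BHLHE40 stood at 48.5 CPM (1063 reads, exact Poisson interval 45.6 to 51.5 CPM), against 15.2 to 23.4 CPM in the vehicle. DBP stood at 1.78 CPM (39 reads, exact Poisson interval 1.26 to 2.43 CPM), against 4.88 to 5.62 CPM, and PER3 at 6.29 CPM (138 reads, exact Poisson interval 5.29 to 7.43 CPM), against 10.9 to 11.3 CPM. The intervals are at 95% and cover counting error only.

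The low dose of Coptidis Rhizoma, 11.2 µg/mL, had 2 genes past that fold (5.41% of all genes), DBP at 3.33 CPM (75 reads, exact Poisson interval 2.62 to 4.17 CPM) and BHLHE40 at 31.7 CPM (715 reads, exact Poisson interval 29.4 to 34.1 CPM). NR1D1 was above the vehicle range of 13.5 to 13.7 CPM at both doses, with log2 differences of 0.47 (low) and 0.46 (medium). CLOCK stood at 51 CPM at the medium dose and at 34.2 CPM in the Zizyphi Fructus low library, which stands apart from its other doses. Without the TMM factor, a setting chosen after seeing the data, CLOCK at Coptidis Rhizoma medium was 46.6 CPM, the number of clock genes past the fold there was 4, with PER1 added, and at the low dose it was 2. The NR1D1 differences were then 0.27 (low) and 0.31 (medium) log2 units. Zizyphi Fructus had 0 clock genes past the fold at its low (3.12%), medium (2.23%) and high dose (2.12%).

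Of 21 further clock genes, 18 were tested, and RORB, BHLHE41 and CIART had too few reads. At the high dose 8 of the 18 were called in Sayeok-tang (2 higher and 6 lower, with 40.2% of all genes called), 10 in Zingiberis Rhizoma Recens (6 and 4, 47.9%) and 8 in Zingiberis Rhizoma (2 and 6, 46.1%). In Scutellariae Radix 13 were called (6 and 7, 56.7%) and in Bojungikgi-tang 1 (lower, 4.55%). Those of the first 3 extracts are near the shares over all genes. In Pinelliae Tuber edgeR called 0 (15.7%), and 2 passed at an unadjusted p below 0.05. Their median log2 fold changes lay between -0.07 and 0.01.

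TEF, a D-box factor of the same family as DBP, fell with it. TEF had 7.27, 6.76 and 6.99 CPM in Zingiberis Rhizoma Recens high, against 14.8, 14.5 and 12.8 CPM in the vehicle, and its log2 fold change was -1.0 ± 0.075 (SE; edgeR adjusted p = 1.9e-15). In Sayeok-tang, Zingiberis Rhizoma and Scutellariae Radix high it was -0.83 ± 0.073, -0.71 ± 0.084 and -0.71 ± 0.073. The third factor of the family, HLF, named after its values were seen, had log2 fold changes of -0.21 ± 0.031, -0.30 ± 0.031, -0.42 ± 0.035 and -0.70 ± 0.031 at the high doses of Sayeok-tang, Zingiberis Rhizoma Recens, Zingiberis Rhizoma and Scutellariae Radix, all called.

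KLF10 and NOCT, both clock-controlled genes, rose at the same 4 high doses. Like TEF, they were named for large changes among the genes called at a high dose. That choice favours genes that change at these doses. KLF10, a zinc finger repressor, had log2 fold changes of 0.58 ± 0.056, 0.80 ± 0.056, 0.55 ± 0.063 and 0.75 ± 0.056 in Sayeok-tang, Zingiberis Rhizoma Recens, Zingiberis Rhizoma and Scutellariae Radix. NOCT, the gene of the phosphatase nocturnin, had 0.46 ± 0.083, 0.61 ± 0.082, 0.53 ± 0.093 and 0.85 ± 0.081 in the same order.

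BMAL1, the partner of CLOCK, fell in Zingiberis Rhizoma high to 2.59 and 2.63 CPM, against 3.91, 5.43 and 4.72 CPM in the vehicle (log2 fold change -0.85 ± 0.17, edgeR adjusted p = 3.4e-05). It also fell in Sayeok-tang high (-0.40 ± 0.13) and Scutellariae Radix high (-0.35 ± 0.13), in both with libraries that overlapped with the vehicle, and both calls were lost without vehicle replicate 2 or their own replicate 1 or 2. Its value in Zingiberis Rhizoma Recens high was -0.14 ± 0.13 and not called. NPAS2, which can take the place of CLOCK, fell in Sayeok-tang high and Scutellariae Radix high, with a log2 fold change of -0.16 in each (edgeR adjusted p = 0.0044 and 0.0032).

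The ROR receptors activate BMAL1 at the sites where NR1D1 and NR1D2 repress it. RORA rose with dose in Zingiberis Rhizoma Recens, where it stood at 8.68 ± 0.793 CPM in the vehicle and 11.6 ± 0.189, 12.3 ± 0.265 and 15.4 ± 0.778 CPM at the low, medium and high dose (SD, n = 3 each; log2 fold changes against the vehicle 0.41 ± 0.084, 0.50 ± 0.084 and 0.83 ± 0.081). The low-dose call was lost without vehicle replicate 1 (edgeR adjusted p = 0.095). RORA was not called at the high dose of Zingiberis Rhizoma (-0.14 ± 0.10), and the gingers differed by 0.97 ± 0.095 at that dose (edgeR adjusted p = 4.2e-11).

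**Figure D4:**
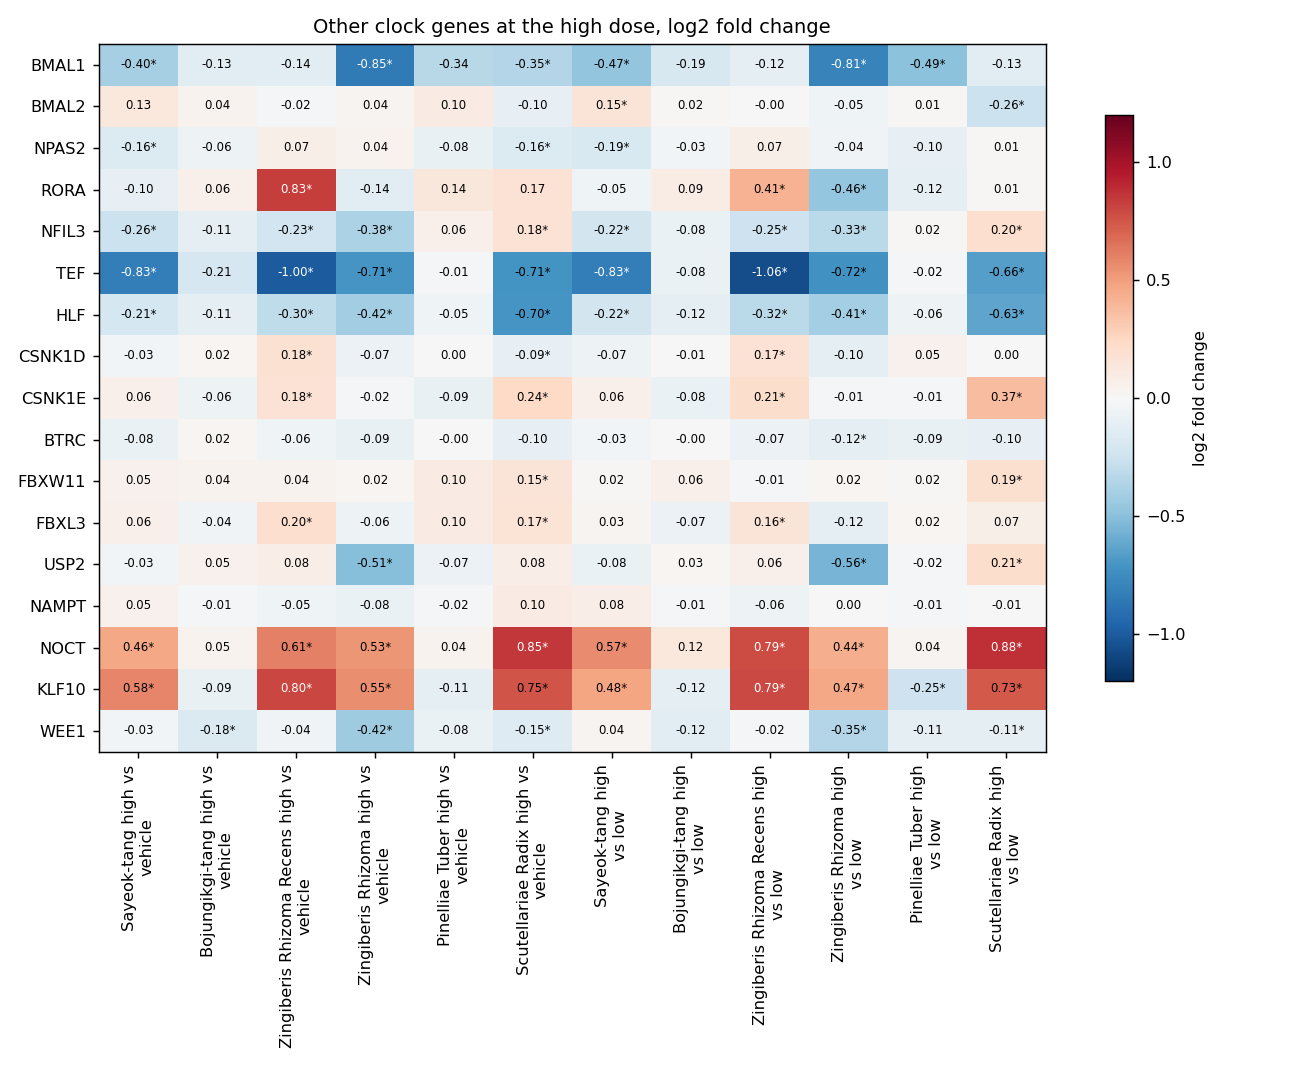
Log2 fold change of further clock genes (rows) at the high dose against the vehicle (left columns) and against the low dose of the same extract (right columns), red for higher and blue for lower, with an asterisk where edgeR called the gene. TEF falls and NOCT and KLF10 rise in the same 4 extracts, and RORA rises in Zingiberis Rhizoma Recens (0.83 against the vehicle).

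Other lists moved in the same libraries, and their part in the clock gene values was not tested. Of 10 targets of hypoxia-inducible factors, edgeR called 10 higher at Zingiberis Rhizoma Recens high (median log2 fold change 1.31, with 47.9% of all genes called), 9 at Sayeok-tang high (0.62, 40.2%), 6 at Zingiberis Rhizoma high (0.44, 46.1%) and 6 at Pinelliae Tuber high (0.21, 15.7%), where BHLHE40 was not called. At Scutellariae Radix high 3 were higher and 1 lower (0.23, 56.7%). At the low doses where BHLHE40 was called, 4 of the 10 were higher in Scutellariae Radix (0.31, 10.3%), 4 in Zingiberis Rhizoma (0.27, 2.12%) and 4 in Zingiberis Rhizoma Recens (0.40, 0.602%). At Scutellariae Radix high against low, 2 were higher and 5 lower (-0.21, 55.7%). Of the 6 hepatocyte markers, edgeR called 6 lower at Scutellariae Radix high, 5 at Zingiberis Rhizoma high, 4 at Sayeok-tang high and 3 (with 1 higher) at Zingiberis Rhizoma Recens high, beside the same shares of all genes called (56.7%, 46.1%, 40.2% and 47.9%).

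Across the 24 group means, BHLHE40 and DBP had a Pearson r of -0.86 on the log2 CPM scale, PER3 and DBP an r of 0.80, NR1D1 and BHLHE40 an r of 0.79 and CRY1 and BHLHE40 an r of 0.77. PER1, PER2 and CRY2 had r of 0.66 to 0.69 with one another, while NR1D1 had r of -0.11 with PER1 and -0.08 with CRY2. The points share sequencing libraries between genes, 5 of them are single libraries, and the high doses of a few extracts set most of the range, so these values describe the groups and carry no test.

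**Figure D5:**
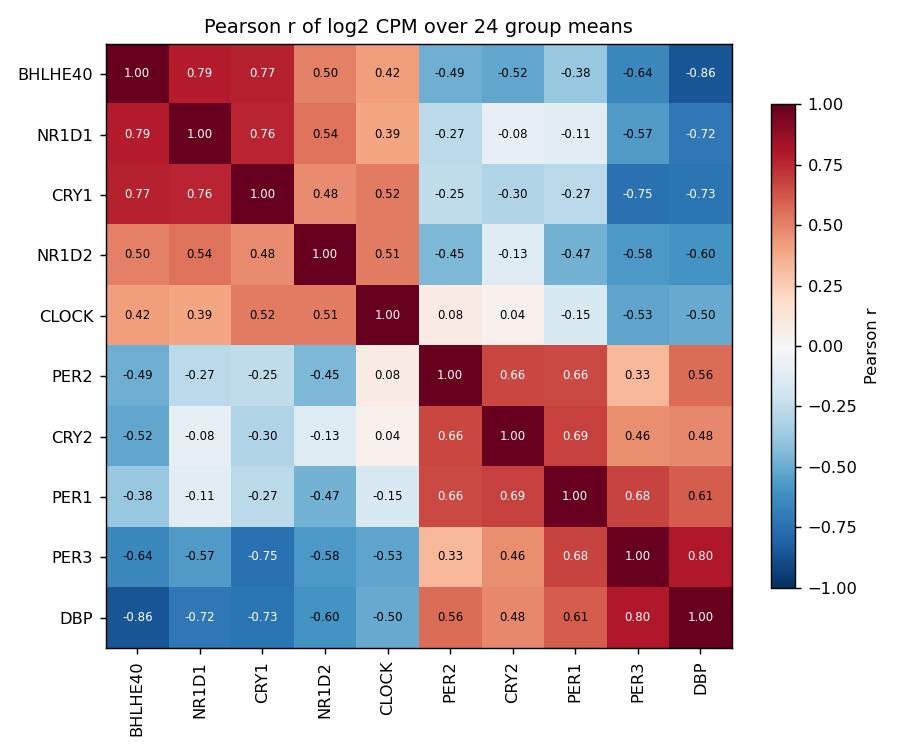
Pearson r of log2 CPM between pairs of the 10 clock genes over 24 group means, red for positive and blue for negative. BHLHE40, NR1D1 and CRY1 form a block with r of 0.76 to 0.79, and DBP is opposed to BHLHE40 (r = -0.86).

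Ranked by the same measure among 10648 or 10649 other genes with a mean of at least 5 CPM, the genes most like BHLHE40 included GBE1 (r = 0.95) and P2RY11 (0.94), and those most like DBP were GLRX5 (0.97), ANXA9 (0.97) and NUDT16L1 (0.97). NR1D1 was followed by ATF3 (0.92), PPP1R15A (0.92) and MAFF (0.92). PER3 was followed by MVK (0.96), PNPLA3 (0.95) and TM7SF2 (0.95). CRY1 had TRIB1 (0.91), NAB2 (0.90) and KLF10 (0.90), and CLOCK had ROCK2 (0.92), FBXO38 (0.92) and ARHGEF12 (0.91). For PER1 they were TNRC18 (0.86), TOB2 (0.83) and BTBD2 (0.82), for PER2 NFKB1 (0.88), VCL (0.84) and HNRNPUL1 (0.84), for NR1D2 IARS1 (0.87), EPRS1 (0.87) and TMEM192 (0.86), and for CRY2 EHMT1 (0.82), PLEKHA5 (0.81) and SOX5 (0.81). These are likenesses of level over 24 groups and say nothing of shared control.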

How the data were processed

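Each library was made from HepG2 RNA with a kit that keeps strand and read as pairs of 100 bases, per the labels' protocols. The submitters' processing notes name FastQC 0.11.9, Trim Galore 0.6.5, STAR 2.7.3a, RSEM 1.3.3 and the builds hg38 and GRCh38. The authors deposited RSEM expected counts per Ensembl gene, of which 75.26% of the nonzero values were whole. The annotation release and the strand setting of the counting are not given in the sources used here. The 209 columns whose names matched no sample here were not used, and the labels' wortmannin control was not analysed here.

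Expected counts were rounded, and a gene was kept where 3 or more libraries reached 1 CPM, which left 13945 of 60675 (26797 had no reads in the libraries used). TMM scaling and edgeR 4.0.16 (R 4.3.3) followed, with 1 mean for each of 24 groups over all 58 libraries and a quasi-likelihood test with Benjamini-Hochberg adjustment, called below 0.05. SE is the log2 fold change divided by the root of F. The CPM printed are TMM-scaled. The common dispersion of 0.00181 corresponds to a coefficient of variation of 4.25% between libraries, and no replicate pair agreed within sampling noise. The test was checked on simulated counts with known changes.

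DESeq2 1.42.0, RLE scaling, no filter, a fit of the compared groups alone, a replicate block (limma 3.58.1 was loaded for edgeR) and leaving out each library were alternatives. Symbols (55413 genes) were taken from a current name table first and then from GENCODE 29. Exon lengths and overlaps come from GENCODE 29 on GRCh38, and promoters from RefSeq. Positions of genes and promoters thus come from different annotations. The members and lists were chosen with earlier results of these data known. Named were all 10 members, up to 6 further clock genes by largest change among those called at a high dose, BMAL1, NPAS2, RORA and THRA, and the 3 genes most like each member. Of these, 2 genes are not reported here, though counts over lists include them where tested.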

Additional observations from a re-analysis of the deposited data

Results flagged for a closer look

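In 13 cases the high-minus-low difference of a clock gene differed between extracts that share a code prefix, by the interaction test in edgeR. Between Sayeok-tang and Bojungikgi-tang the difference of the log2 fold changes was -0.58 for PER1, -0.67 for DBP and 1.21 for BHLHE40. The DBP value was not called in DESeq2 (adjusted p = 0.082), with no filter, with only the compared groups in the fit, or without any 1 of 9 of the 10 libraries.

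Between Zingiberis Rhizoma Recens and Zingiberis Rhizoma it was 0.86 for PER1, 0.29 for PER2, 0.59 for NR1D1, -0.32 for NR1D2 and 0.58 for BHLHE40. The PER2 value was not called without Zingiberis Rhizoma high replicate 1 (edgeR adjusted p = 0.21) or Zingiberis Rhizoma Recens high replicate 1 (0.07), and the NR1D2 value was not called without any 1 of 6 of the 11 libraries.

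Between Scutellariae Radix and Pinelliae Tuber it was -0.27 for PER2, 0.68 for NR1D1, 0.25 for NR1D2, -1.19 for DBP and 1.33 for BHLHE40. The NR1D2 value was not called in DESeq2 (adjusted p = 0.06), nor without any 1 of 5 of the 12 libraries.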

How the results depend on the processing

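Among 300 values (10 clock genes in 30 comparisons), edgeR called 94, and 0 reversed under any alternative run. Of those 94 calls, 88 were kept in DESeq2, 93 with RLE scaling, 84 with no filter on low counts, 85 with only the compared groups in the fit, 92 with the replicate block and 92 without the 3 libraries that stand apart, a setting chosen after seeing the data. Over all fits that left out 1 library, 539 of 604 calls were kept and 11 were gained. Numbers of clock genes called moved by over 1.5 times in the following cases. Against the vehicle, Bojungikgi-tang high had 1 without the 3 libraries, beside 0. Pinelliae Tuber high had 2 with no filter, beside 1, and Pinelliae Tuber low had 1 in DESeq2, 1 with no filter and 1 without the 3 libraries, beside 0. With only the compared groups, Zingiberis Rhizoma low and Scutellariae Radix low had 0, beside 1 each, and the gingers had 3, beside 5, both at the high dose and in the dose effect. Leaving out 1 library gave 0 to 1 at Sayeok-tang medium, 1 to 3 at Zingiberis Rhizoma Recens medium, 0 to 1 at the low doses of Zingiberis Rhizoma Recens, Zingiberis Rhizoma, Pinelliae Tuber and Scutellariae Radix, 0 to 2 at Pinelliae Tuber high, 0 to 1 for Pinelliae Tuber high against low, 3 to 6 for Sayeok-tang against Bojungikgi-tang and 3 to 5 for the dose effects of the gingers. The cause was not tested.

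With the replicate number as a block, Pinelliae Tuber high had 2 calls, beside 1, with CLOCK added, and Pinelliae Tuber low had 1, beside 0, which was BHLHE40. PER1 at Scutellariae Radix high and CRY1 for Scutellariae Radix high against low were lost (edgeR adjusted p = 0.051 each). Whether the replicate numbers pair the samples was not settled. No comparison with 3 pairs had a correlation of deviations over 0.1 in each pair. In comparisons with 2 pairs the correlations ran from 0.0014 to 0.24. Both pairs were over 0.1 in Bojungikgi-tang high against low (0.227 each) and in the gingers at the high dose (0.113 and 0.121). With so few libraries a group, such correlations cannot exclude pairing. Depth limits DBP most, with 39 reads in the 1 library of Coptidis Rhizoma medium to 449 over the 3 of Zingiberis Rhizoma low.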
